A study of Homo sapiens with 4 samples.

Results

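A set of 10 genes was followed through 4 days of NF-κB inhibition in myeloma cells. It held UBD, the immunoproteasome genes PSMB8, PSMB9, PSMB10, PSME1 and PSME2, and the genes of peptide loading onto MHC class I, TAP1, TAP2, TAPBP and B2M. Genes were matched to probes by their symbol in the array annotation, updated to current symbols. Of the 10 genes 8 had at least 1 probe, 19 probes in all, out of 4604 genes named on the array, and all 8 had values on at least 3 arrays. PSMB8 and PSME2 had no probe under their symbols or RefSeq aliases and are not analysed here. The set was chosen by gene function with the mean log2 ratios over these arrays known, that of UBD above all, so the means over the 4 arrays are given below as descriptions without a test. What the choice did not state is the course over the days, and that was tested.

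The cells were EJM, a human cell line established from multiple myeloma (a bone marrow cancer of antibody-secreting plasma cells), and carried an IκBα super-repressor under a tetracycline-regulated switch. A super-repressor is a form of IκBα, the inhibitor that keeps NF-κB transcription factors in the cytoplasm, that resists breakdown on signalling. Induced cells had received 20 µg/ml doxycycline for 1, 2, 3 or 4 days and were labelled with Cy5. The uninduced control, which carries the same construct, was labelled with Cy3 on each of the 4 arrays. All cells were therefore EJM with the construct, and no arm had doxycycline without it, so effects of the drug itself cannot be told apart from those of the super-repressor. The sources used here do not say whether the cells were 1 clone, or whether a single control RNA served all arrays.

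Proteasomes cut intracellular proteins into peptides. In the immunoproteasome the catalytic subunits PSMB8, PSMB9 and PSMB10 take the places of PSMB5, PSMB6 and PSMB7, and the PSME1 and PSME2 proteins form the PA28 activator that caps the core. TAP1 and TAP2 pair into the transporter that carries peptides into the endoplasmic reticulum, tapasin (TAPBP) holds class I molecules at that transporter, and B2M is the light chain of every class I molecule. UBD encodes FAT10, a ubiquitin-like protein that is attached to other proteins and directs them to the proteasome. Interferon-γ and tumour necrosis factor are known inducers of most of these genes in many cell types.

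In RefSeq, UBD, TAP2, PSMB8, TAP1, PSMB9 and TAPBP lie in that order on chromosome 6, in or beside the MHC, PSME1 and PSME2 on chromosome 14, B2M on chromosome 15 and PSMB10 on chromosome 16. The promoters of the genes were examined because several of the genes are described as NF-κB targets. RefSeq (GRCh38.p14) gave start sites for all 10 genes, 12 in all. The 250 bases before each start were searched on both strands for the κB consensus, the general recognition sequence of NF-κB, and for GAAANNGAAA, a form of the element bound by interferon regulatory factors. The κB consensus was found for 4 of the 10 genes (UBD, TAP1, TAPBP and B2M). That was 4 of the 12 windows, beside 5.2% of 34943 such windows over all genes. GAAANNGAAA was found for 6 genes (PSMB10, PSME2, TAP1, TAP2, TAPBP and B2M). That was 6 of the 12 windows, beside 3.02% of all windows. A second start of TAP1 had neither element in its window. TAP1, TAPBP and B2M held both, and no κB match overlapped a GAAANNGAAA match. The 4 promoters with a κB match are shown because their genes gave different values, from the lowest of the set (UBD) to the highest (B2M). The last 150 bases before the start are printed on the strand of the gene, with the κB match in capitals, which for B2M reads as the consensus on the opposite strand.
UBD, chr6:29559733-29559882, minus strand: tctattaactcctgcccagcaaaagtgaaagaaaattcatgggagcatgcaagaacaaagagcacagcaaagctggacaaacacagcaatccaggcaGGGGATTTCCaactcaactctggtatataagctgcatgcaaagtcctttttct
TAP1, chr6:32853705-32853854, minus strand: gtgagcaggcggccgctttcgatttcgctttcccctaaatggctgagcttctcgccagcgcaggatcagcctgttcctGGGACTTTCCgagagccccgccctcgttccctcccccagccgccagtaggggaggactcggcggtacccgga
TAPBP, chr6:33314079-33314228, minus strand: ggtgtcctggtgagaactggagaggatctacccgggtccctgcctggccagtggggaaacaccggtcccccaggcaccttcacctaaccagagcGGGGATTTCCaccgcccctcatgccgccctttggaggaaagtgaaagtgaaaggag
B2M, chr15:44711367-44711516, plus strand: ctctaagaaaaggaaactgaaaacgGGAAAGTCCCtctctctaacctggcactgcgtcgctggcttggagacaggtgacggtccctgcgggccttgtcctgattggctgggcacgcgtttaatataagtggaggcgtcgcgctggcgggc
The match began 53 bases before the start in UBD, 56 in TAPBP, 72 in TAP1 and 125 in B2M. The same 10 letters, GGGGATTTCC, stood in UBD and TAPBP. PSMB9, which starts next to TAP1 and is read in the opposite direction, had neither element in its own 250 bases. These are letter matches and say nothing of binding.

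Values are log2 ratios of induced (Cy5) over uninduced (Cy3) cells, with 1 array per day. The labels' dyes set the direction, and the range of the values set the base of 2; neither is stated with the values. The opposite direction would turn every sign, and a natural log would change every fold but no test. Between 10321 (day 2) and 13872 (day 4) of 15246 probes had values. Features are the averages of named genes together with single probes that have no single gene symbol. The days 1 and 2 arrays were more widely spread over features (SD 0.480 and 0.535) than the days 3 and 4 arrays (SD 0.315 and 0.348). Pairs of arrays correlated at r between 0.02 (days 1 and 4) and 0.566 (days 3 and 4) over probes. They may share a control RNA, and probes are not independent replicates. TNFAIP3, a standard NF-κB target, was lower in induced cells on all 4 arrays, with a mean of -1.47 ± 0.28 (SD, 4 arrays). It was named with earlier results of these data known, so it does not check the labels or the direction of the ratio. NFKBIA itself had a mean of -0.14 ± 0.07. Its 5 probes disagreed, and whether any detects the transgene is not known here. Among the plasma cell markers 7 of 8 had means above 0 and 0 of 8 were called. A ratio of induced to uninduced cells cannot show whether a marker is present, so the cell type was not checked by it.

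UBD was lower in induced cells on every day. The average of its 2 probes read -1.14, -1.22, -0.90 and -1.18 on days 1 to 4, a mean of -1.11 ± 0.14 (SD, 4 arrays) or 2.16-fold lower. Day 3 was the highest and day 2 the lowest. RNA came from whole cultures, so fewer cells expressing a gene and less RNA per cell cannot be told apart in any of these values. Probe 35750_1 read -1.03, -1.29, -1.03 and -1.12 on days 1 to 4. Probe 36766_1 read -1.25, -1.15, -0.77 and -1.25. Both probes thus gave much the same level, with means of -1.12 and -1.11, and they differed by at most 0.27 on any day. The order of the days was not shared. Probe 35750_1 was lowest on day 2 and probe 36766_1 on days 1 and 4, and day 3 stood out as the highest in probe 36766_1 alone.

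On the wider arrays of days 1 and 2, 1.26% and 1.66% of features lay below UBD. On days 3 and 4 these shares were 0.45% and 0.19%, so fewer features lay below it on the later, narrower arrays. On the mean UBD ranked 5 from the lowest among 4212 named genes and 15 among all 7713 features. With values on all 4 arrays, 7 features stayed throughout at or below -0.9, a limit taken from UBD's own highest day. Beside UBD itself, TNFAIP3 and DPYSL2 were the named genes among them. UBD was the gene of the set among the features called on the mean (1 of 8 genes of the set, against 0.337% of all 7713 features, limma with Benjamini-Hochberg adjustment). Since that contrast chose the gene, nothing is read from this call, and with any 1 array left out 0 genes of the set were called.

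**Figure D1:**
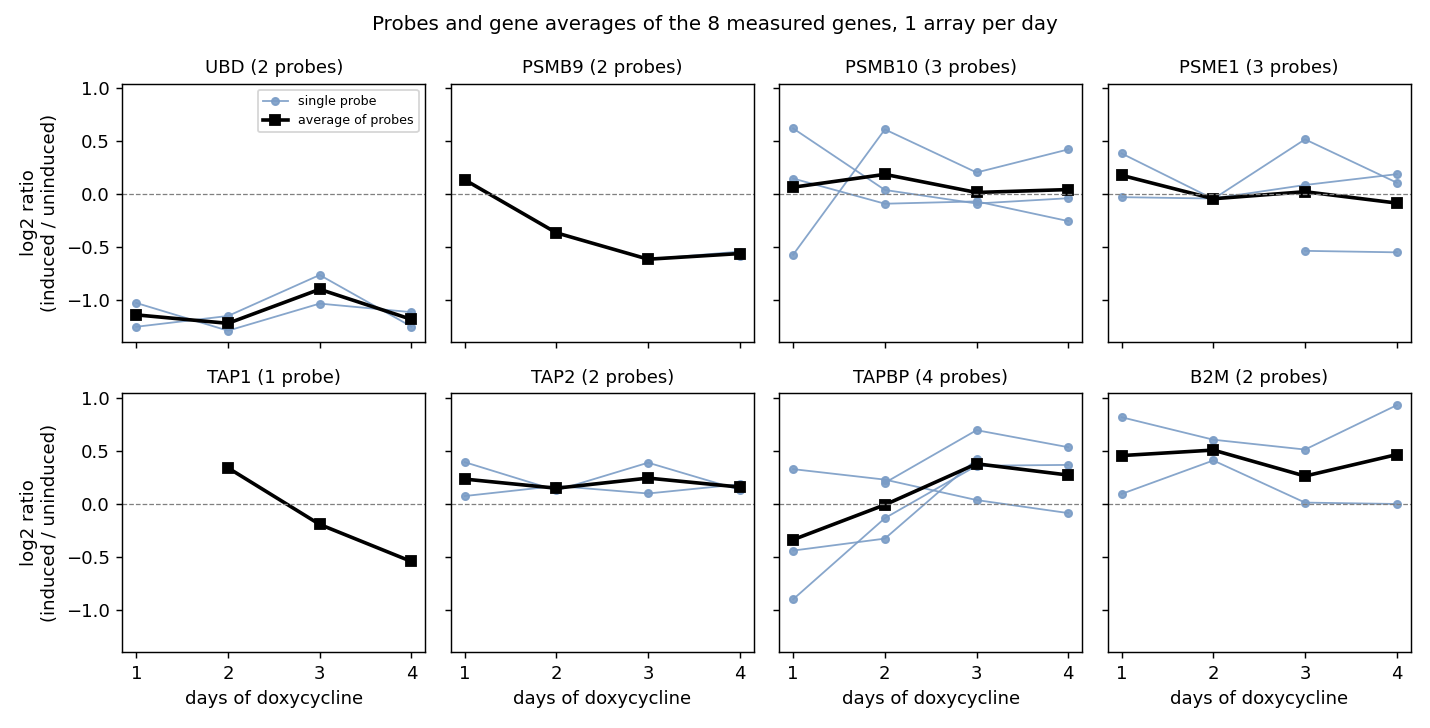
Log2 ratio of induced over uninduced cells (y axis) on days 1 to 4 of doxycycline (x axis) for the 8 measured genes. Blue lines are single probes and black squares the average of the probes. UBD lies between -1.22 and -0.90 with its probes close together, PSMB9 and TAP1 are lower on later days, and the probes of PSMB10, PSME1, TAPBP and B2M stand apart from each other.

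PSMB9, the inducible subunit that replaces PSMB6, was above 0 on day 1 and below 0 afterwards. Its average read 0.13, -0.37, -0.62 and -0.56 on days 1 to 4, with a mean of -0.35 ± 0.34 (SD, 4 arrays). The value rests on probe 27029_1, because probe 24720_1 had a value on day 4 alone, where it read -0.58 against -0.54 for the other. Of all features, 67.5%, 24.8%, 1.68% and 3.21% lay below PSMB9 on days 1 to 4. PSMB9 was therefore inside the bulk of the features early and in their lower tail late.

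The slope of PSMB9 on day was -0.23 ± 0.095 log2 per day (SE, 4 arrays) and did not pass (limma adjusted p = 0.338). With 1 array left out the slope ran from -0.375 (without day 4) to -0.098 (without day 1), and the mean from -0.52 (without day 1) to -0.27 (without day 3). The mean over days 3 and 4 alone was -0.59.

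PSMB10, the inducible subunit that replaces PSMB7, averaged 0.06, 0.19, 0.01 and 0.04 on days 1 to 4, a mean of 0.08 ± 0.08. This flat average covers probes that disagreed. Probe 15862_1 read 0.62 on day 1 and 0.04, -0.09 and -0.04 afterwards, while probe 33020_1 read -0.57 on day 1 and 0.61, 0.20 and 0.42 afterwards. Probe 28421_1 lay between 0.15 and -0.26. On day 1 the probes spanned 1.19, more than the whole range of the average over the days.

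Each inducible subunit was also set beside the constitutive subunit that it replaces. PSMB5 was not measured under its symbol. PSMB7 was below 0 on all 4 arrays, with a mean of -0.35 ± 0.10 (limma adjusted p = 0.286). The log2 ratio of PSMB10 minus that of PSMB7 was 0.41, 0.41, 0.47 and 0.42 on days 1 to 4, a difference of 0.43 ± 0.03 (SD, 4 arrays). The average was above 0 on each array, but its steadiness does not hold for the single PSMB10 probes. Minus PSMB7, probe 33020_1 gave -0.22 on day 1 and 0.83, 0.66 and 0.80 afterwards, while probe 15862_1 gave 0.97 on day 1 and 0.26, 0.36 and 0.34 afterwards. Probe 28421_1 gave 0.50, 0.13, 0.38 and 0.13. PSMB6 had a mean of -0.12 ± 0.29 (limma adjusted p = 0.747). PSMB9 minus PSMB6 was -0.16, -0.09, -0.49 and -0.20, a difference of -0.23 ± 0.18. On the averages PSMB10 lay above its counterpart and PSMB9 below it. Each counterpart rests on 1 probe, and 4 arrays cannot give an exact two-sided sign-flip p under 0.125, so neither difference was tested.

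PSME1, the α subunit of the PA28 activator, stayed near 0. Its average was 0.18, -0.05, 0.02 and -0.09 on days 1 to 4, with a mean of 0.02 ± 0.12. Probe 28602_1 had values on days 3 and 4 alone, at -0.54 and -0.55. Probes 16050_1 and 30050_1 had means of 0.05 and 0.24, so the later averages hold a low probe that the earlier ones lack. With probes present on all 4 arrays the mean was 0.14. Among other regulators of the proteasome core outside the set, the activator PSME3, the nuclear relative of PA28, had a mean of 0.28 ± 0.10, the activator PSME4 of -0.08 ± 0.30 and the inhibitor PSMF1 of 0.24 ± 0.17. None of these was called (limma adjusted p = 0.377, 0.845 and 0.462).

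The partners in the peptide transporter read differently by day, and the difference between them was not tested. TAP1 had 1 probe and no value on day 1. It read 0.34, -0.20 and -0.55 on days 2 to 4, with a mean of -0.13 ± 0.45 (SD, 3 arrays). Shares of 84.2%, 21.3% and 3.43% of features lay below it on those days. TAP2 was above 0 on all 4 arrays for both of its probes, at 0.23, 0.15, 0.24 and 0.16, a mean of 0.20 ± 0.05. The values of TAP1 thus crossed from above to below TAP2 between days 2 and 3. TAP1 entered no slope test, which needed all 4 arrays.

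TAPBP (tapasin) was below 0 on day 1 and above it on days 3 and 4, with an average of -0.34, -0.01, 0.38 and 0.27 and a mean of 0.07 ± 0.32. Its 4 probes did not share that course. Probe 16918_1 read -0.90, -0.14, 0.36 and 0.37 on days 1 to 4, and probe 30228_1 read 0.33, 0.23, 0.04 and -0.09. Probe 28910_1 read -0.44, -0.33 and 0.42 on days 1 to 3. Probe 29934_1, missing on day 1, read 0.20, 0.70 and 0.53 on days 2 to 4. The slope of the average was 0.22 ± 0.092 log2 per day (limma adjusted p = 0.348) and did not pass, and with probes present on all 4 arrays it was 0.14. With 1 array left out it ran from 0.140 (without day 1) to 0.358 (without day 4).

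B2M, the light chain, was the highest of the set on the mean. Its average was 0.46, 0.51, 0.26 and 0.46 on days 1 to 4, a mean of 0.42 ± 0.11 (SD, 4 arrays) or 1.34-fold higher, and between 81.8% and 92.7% of features lay below it on each day. The level comes from 1 of its 2 probes. Probe 27520_1 read 0.82, 0.61, 0.51 and 0.93, with a mean of 0.72, and probe 16763_1 read 0.09, 0.41, 0.01 and -0.002, with a mean of 0.13. The probes were apart by 0.93 on day 4 and 0.20 on day 2, so the size of the B2M ratio depends on the probe.

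**Figure D2:**
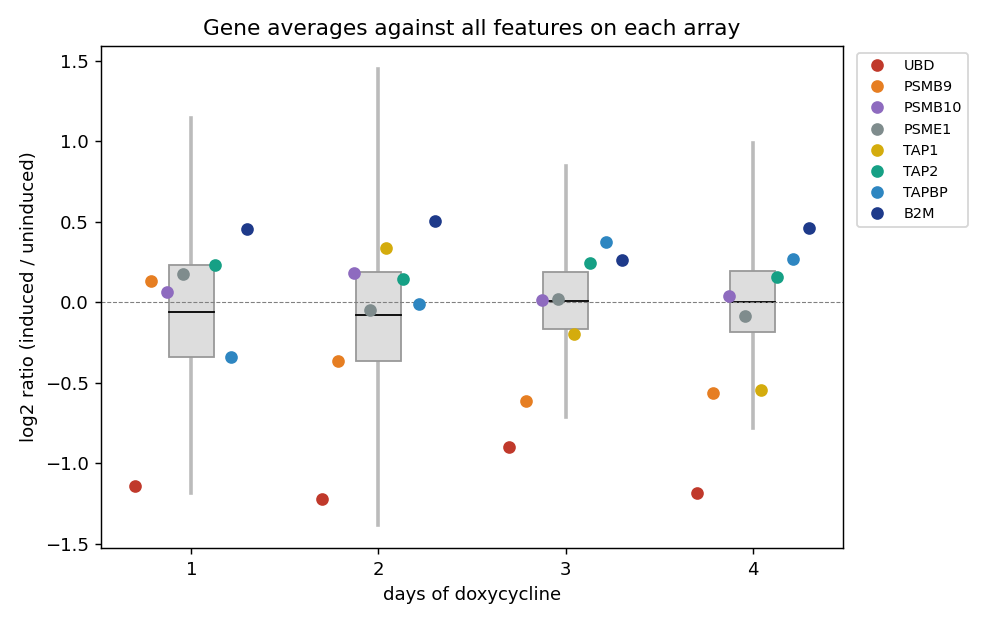
Log2 ratio of induced over uninduced cells (y axis) by days of doxycycline (x axis). Boxes span the 25th to 75th percentiles of all features on that array with the median as a line, and grey bars the 1st to 99th percentiles. Coloured points are the gene averages: UBD lies at -0.90 or lower on each day, outside the grey bar on days 3 and 4, and B2M lies at 0.26 or higher.

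The test of the course over the days asked which genes changed steadily from day 1 to day 4. Of the 7 genes of the set with values on all 4 arrays 0 passed, against 0% of all 6427 features (limma, smallest adjusted p = 0.304). Before adjustment, 963 features and 0 of the 7 genes had a p under 0.05. The nearest were PSMB9 (unadjusted p = 0.0525) and TAPBP (unadjusted p = 0.0566). For the other 5 genes the slopes lay between -0.072 (PSME1) and 0.019 (UBD), with limma adjusted p values from 0.674 to 0.948. For UBD the slope of 0.019 ± 0.092 log2 per day compares with a mean of -1.11, and for B2M the slope was -0.022 ± 0.087.

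In order of the mean the genes ran UBD, PSMB9, TAP1, PSME1, TAPBP, PSMB10, TAP2 and B2M, from -1.11 to 0.42. UBD stood apart, since its highest day (-0.90) was below the lowest day of the next gene, PSMB9 (-0.62). From PSMB9 to TAP2 neighbouring genes overlapped over the days. B2M and TAP2 did not overlap, at 0.26 and 0.24 on their nearest days, a smaller gap than that between the B2M probes. The median of the 8 means was 0.05, with 3 below 0 and 5 above, beside a median of -0.03 over all 7713 features. The set did not move as 1 block.

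The genes whose 4 daily ratios were nearest to those of UBD, by Euclidean distance over the 4 arrays among 3768 other named genes, were DPYSL2 (distance 0.428), IL2RG (0.451), ZYG11B (0.693), FAS (0.778) and NFKB2 (0.835). The median distance from UBD was 2.22. The nearest to PSMB9 were MAD2L1 (0.142), TK1 (0.158), MCM5 (0.185), PRMT1 (0.227) and CTCF (0.257), with a median distance of 1.06. MAD2L1, a spindle checkpoint protein, read 0.07, -0.36, -0.51 and -0.49 on days 1 to 4, and TK1 and MCM5 are genes of nucleotide and DNA synthesis. The nearest to B2M were RBM25 (0.110), FAIM (0.135), IFITM1 (0.144), ST6GAL1 (0.185) and CD44 (0.190), with a median distance of 1.08. Among genes of the set PSMB9 was 1.68 from UBD, and B2M was 3.10 from it.

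The rest of the pathway was described from lists of related genes. Of the genes that attach or bind FAT10 4 of 7 were measured, with a median of -0.24, 3 below 0 and 0 called. UBA6, the enzyme that activates FAT10, was at -0.25, -0.32, -0.25 and -0.25 on days 1 to 4, a mean of -0.27 ± 0.04 (limma adjusted p = 0.378). MAD2L1, which FAT10 binds, had a mean of -0.32 ± 0.27 (limma adjusted p = 0.404). Both lay below 0 on average, and neither was called.

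Class I heavy chains and other partners of B2M had a median of -0.06 over 8 genes, with 5 below 0, 3 above and 0 called. The 2 largest means were those of CD1C (-0.35 ± 0.20, 3 arrays) and CD1D (0.25 ± 0.14), which present lipids. Probes of the HLA family can hybridise with related transcripts. Genes of peptide trimming and loading chaperones had a median of 0.06 over 6 genes, with 3 below 0 and 0 called. The cytosolic peptidase THOP1 had a mean of -0.50 ± 0.13 and the chaperone calreticulin (CALR) of 0.46 ± 0.16 (limma adjusted p = 0.177 and 0.219).

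Known regulators of class I genes had a median of -0.03 over 13 genes, with 7 below 0 and 0 called. Of these, RFXAP had a mean of -0.37 ± 0.34 and RFX5 of -0.26 ± 0.28, subunits of the RFX factor that binds MHC promoters (limma adjusted p = 0.392 and 0.49). Their slopes on day had opposite signs, 0.24 for RFXAP and -0.22 for RFX5, and neither passed. RFXANK, another subunit of that factor, is named after its values were seen. It read 0.175, 0.063, 0.111 and 0.168 on days 1 to 4, a mean of 0.13 ± 0.05 (limma adjusted p = 0.638). IRF1, an interferon regulatory factor known to act on the TAP1 and PSMB9 promoters, is named here after its values were seen, and supports nothing. It had no value on day 1 and read 0.89, -0.22 and -0.52 on days 2 to 4, with day 2 from 1 of its 2 probes. TAP1 was above 0 on day 2 and below 0 on days 3 and 4, while PSMB9 was at -0.37 on day 2. The share of all features with those signs was not counted, and a link of IRF1 to either gene was not tested.

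Core and assembly genes of the proteasome had a median of -0.15 over the 3 that were measured, with PSMB4 at -0.21 ± 0.30 and PSMA7 at -0.15 ± 0.19 (limma adjusted p = 0.58 and 0.64). Caps other than PA28 had a median of 0.07 over 5 genes. None of the 8 was called. Neighbours of TAP1, TAP2, PSMB9 and TAPBP in the class II region of the MHC had a median of -0.08 over 15 genes, with 8 below 0, 7 above and 0 called. Before adjustment, 5 of the 15 had a limma p under 0.05 on the mean, beside 962 of all 7713 features. Of the 8 genes below 0, 6 were class II chains, named after their values were seen. HLA-DRA, HLA-DRB1, HLA-DQA1, HLA-DQB1, HLA-DPA1 and HLA-DPB1 were below 0 on all 4 arrays, with means from -1.09 to -0.32. The other class II chains measured in the list lay above 0 on the mean, HLA-DOB at 0.27 ± 1.06 and HLA-DMB at 0.03 ± 0.25. The share of all features below 0 on all 4 arrays was not counted. The largest means of the list were HLA-DRA at -1.09 ± 0.52 and KIFC1 at -0.73 ± 1.29 (limma adjusted p = 0.108 and 0.546), and KIFC1 has 3 arrays, with a day 2 value of -2.22 and values of 0.014 and 0.027 on days 3 and 4. Over all 7713 features 4323 means lay below 0 and 3388 above.

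**Figure D3:**
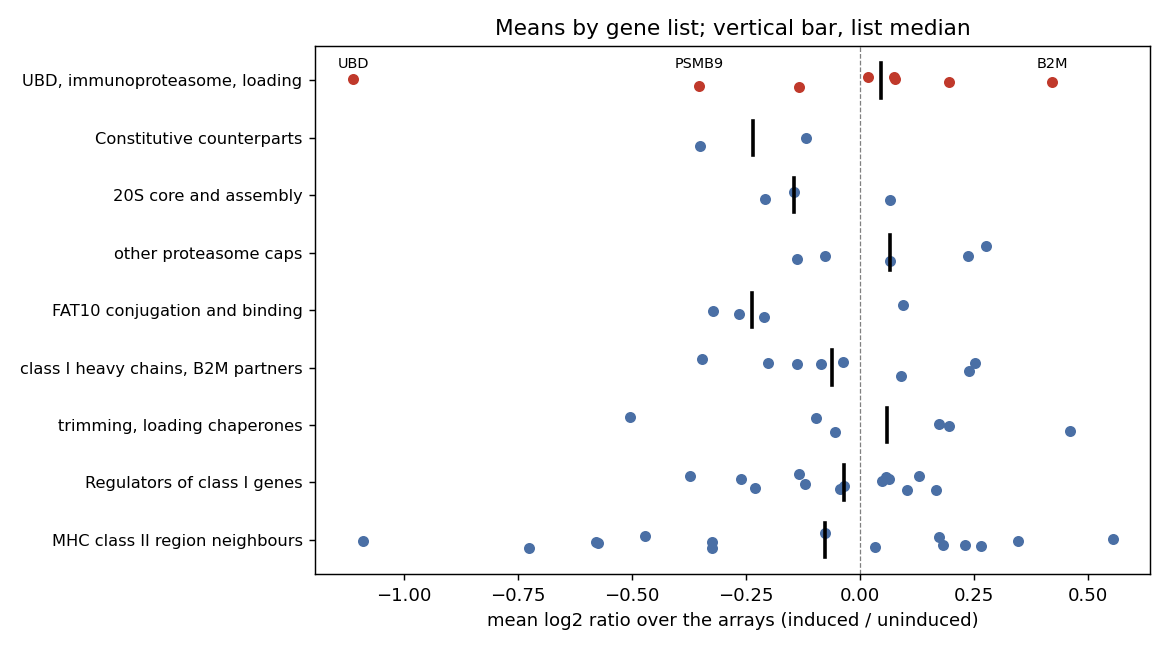
Mean log2 ratio of induced over uninduced cells (x axis) for each gene with values on at least 3 arrays, by gene list (y axis). Points are genes, with the 8 measured genes of the set in red, and vertical bars are list medians. UBD at -1.11 and HLA-DRA at -1.09 are the lowest points, and the list medians lie between -0.24 and 0.07.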

How the data were processed

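Total RNA of induced and uninduced EJM cells was reverse-transcribed with Cy5 and Cy3, 50 µg for each dye, and hybridised to 2-colour arrays, per the labels' protocols. The deposited values are log2 ratios of the 2 channels as used here. The sources used here state neither the log base, the ratio's direction, the background correction, the normalization nor the spot filter. The median log2 ratio per array ran from -0.068 to 0.004.

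The array annotation gave 1 symbol for 10169 of 15246 probes, several for 4 and none for 5073. Current symbols came from RefSeq (GRCh38.p14) by Entrez identifier, found for 10128 probes. Probes of 1 symbol were averaged per array, giving 9681 features. Where probes have missing values, the probes behind an average differ between days.

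The mean against 0 (7713 features with at least 3 values, of which 26 were called, 14 lower and 12 higher) and the slope on day (6427 features with 4 values) were fitted by lmFit and eBayes in limma 3.58.1 under R 4.3.3. Tests were two-sided, p-values were adjusted by Benjamini-Hochberg over all features, and the threshold was 0.05. The script was tested on simulated data. The 4 arrays are different days, not replicates, and no label speaks of separate cultures, so p-values measure the spread between these arrays, which may be technical. Their number limits the precision, and a dye bias or a control that was 1 preparation would remain in the mean. The genes and lists were chosen with earlier results of these data known. The rule for named genes took every measured gene of the set, the 2 largest means and any called gene of each list, and the 5 genes nearest to UBD, PSMB9 and B2M. Alternatives changed the arrays used, their centring and spread, the probe rule and the weights.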

Additional observations from a re-analysis of the deposited data

How the results depend on the processing

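The number of features called on the mean was 26. It was 3 to 5 with 1 array left out, 291 with array weights, 42 among features with values on all 4 arrays, 1 with days 1 and 2 alone and 569 with days 3 and 4 alone. The number called on the slope stayed at 0 under every alternative. UBD kept a mean between -1.18 and -1.03 under the alternatives tried. Its call on the mean was lost with any 1 array left out and with days 1 and 2 alone, and kept under the others. PSMB9 was called with array weights and with days 3 and 4 alone, the alternatives with 291 and 569 features called. No further gene of the set was called under any alternative, and nothing is read from these calls. Of 90 recomputed means of the genes, 87 moved by less than the SD over the arrays. The exceptions were PSME1 with probes present on all 4 arrays (0.145), and TAP2 (0.26) and B2M (0.128) with the probe that had fewest missing values. Where probes tied on missing values, the first by identifier was taken. Such ties arose for UBD, PSMB10, PSME1, TAP2, TAPBP and B2M. For TAP2 and B2M every probe had values on all 4 arrays, so the probe used was not the more complete one. Slopes changed sign in 10 of 70 cases, none of them past the threshold, and the cause was not tested. UBD, at 0.019, gave -0.167 with arrays scaled to the same spread, -0.0005 with the probe that had fewest missing values, and -0.0095 to 0.121 with 1 array left out. PSME1 gave 0.078 with the probe that had fewest missing values and 0.026 with probes present on all 4 arrays. TAP2 gave 0.0023 with arrays scaled, 0.010 for days 3 and 4 minus days 1 and 2, and -0.021 to 0.0052 with 1 array left out. B2M gave 0.029 with arrays scaled. No spot intensities were used here, so the dependence on signal over background could not be examined.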

Other observations

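Markers of other cell types with values on at least 3 arrays are given as values with no explanation. Means above 0 were found for 3 of 3 T cell markers (median 0.14) and 2 of 3 myeloid markers (median 0.02). The same held for 2 of 3 red cell and stromal markers (median 0.10). Over all 7713 features, 3388 means lay above 0. A further T cell marker, CD2, had values on days 3 and 4 alone, at -0.038 and -0.040. Of the 9 genes with at least 3 arrays 1 was called, HBB, at 0.85 ± 0.09 (SD, 4 arrays, limma adjusted p = 0.0381). Their part in the values of the set was not tested.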
